A study of Rattus norvegicus with 10 samples.

Results

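The block analysed here is the stretch of rat chromosome 6 from 68.5 to 72.5 Mb (RN4 assembly). Its members are the deposited regions of captured methylated DNA that lie wholly inside these limits, which are 815 of the 716492 regions of the series. The block was selected on measured tag counts and on the contrast between TBI and sham rats, so both are given below as a description of the members.

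The rats were adult male Sprague-Dawley animals, an outbred strain. The group called TBI (rats 6 to 10) had a lateral fluid-percussion brain injury, a model in which a pressure pulse on the exposed dura injures the cortex and the hippocampus beneath it. The group called sham (rats 1 to 5) had the operation without the pulse. Tissue of the left hippocampus holding the CA3 field and the dentate gyrus was taken 3 months later from 5 rats in each group, and each rat was processed on its own. This tissue is a mixture of neurons, glia and vascular cells, so that a change of methylation within a cell type and a change in the share of cell types cannot be told apart.

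DNA methylation in mammals sits mainly on cytosines that are followed by guanine (CpG sites). A methyl-CpG-binding protein on beads pulls down fragments that carry several such methylated cytosines, and the captured fragments are then sequenced. The number of sequence tags in a region therefore rises with the number of CpG sites it holds, with how many of them are methylated, and with the efficiency of the capture. A stretch in which a rat gives no tag may be unmethylated there, may differ in sequence or may lack the DNA, and these counts do not separate such cases. An annotation of the RN4 assembly was not used here, so the regions are given by position only.

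Regions were thinly spread in the first part of the block and dense in the last. The 8 successive stretches of 500 kb held 34, 42, 48, 84, 104, 170, 153 and 180 regions. The share of sequence covered by regions was 3.38% in the first of these stretches and 22.1% in the last, and the tags of all rats together were 3811 and 34844. Stretches of 100 kb held between 3 and 43 regions each. The widest stretch with no region was 129695 bases long and ran from 70125902 to 70255597, and 6 gaps were over 40 kb. The median gap between neighbouring regions was 1703 bases.

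**Figure D1:**
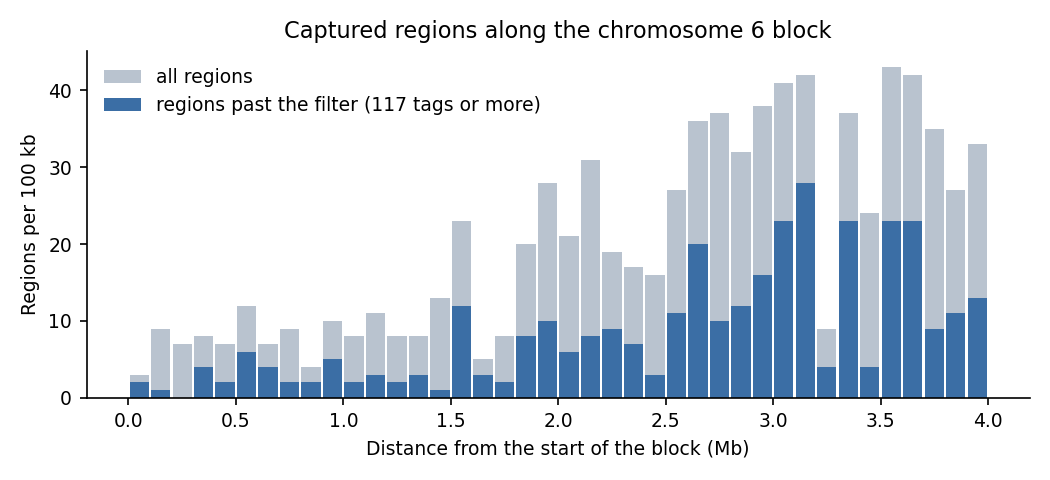
Regions per 100 kb (y axis) against distance from the start of the block in Mb (x axis), with grey bars for all regions and blue bars for regions with at least 117 tags over the 10 rats. The bars run from 3 to 43 regions, and the tall ones stand in the last 1.5 Mb.

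Over the whole block there were 204 regions per Mb, covering 11.8% of the sequence. Among 626 stretches of 4 Mb laid over the autosomes, the number of regions ranged from 155 to 1831 with a median of 1181, and 461 stretches held more than the block. On chromosome 6 alone the median was 1035, and 26 of 36 stretches held more. The block was thus poorer in captured regions than most stretches of its size. Its regions had a median length of 503 bases, against 573 over all regions.

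Regions were tested between groups only where the tags of all rats summed to at least 117, the median over the series. Of the 815 regions, 337 (41.3%) passed, against 50.0% of all regions, and 2 held no tag in any rat. Tested regions of the block had a median of 23.5 tags per rat, against 28.3 over the series, so that counting error weighs somewhat more here. Their mean abundance ran from 0.707 to 30.6 CPM (tag counts-per-million of the library, scaled by the TMM method) with a median of 1.47 CPM.

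The region with the most tags was 71414152 to 71415041, with 30.6 CPM on average or 34.4 CPM per kb. Its tags were 474, 262, 719, 765 and 250 in sham rats 1 to 5 and 353, 355, 662, 383 and 797 in TBI rats 6 to 10. The groups overlapped almost entirely, with a sham mean of 31.2 CPM ± 11.6 and a TBI mean of 30.0 CPM ± 7.53 (SD, n = 5 each). The next by mean abundance were 72034707 to 72036832 (14.0 CPM) and 71866006 to 71867585 (9.96 CPM), and the next per kb were 72071046 to 72072002 (10.4 CPM per kb) and 72152779 to 72153607 (9.16 CPM per kb). All of these lay in the dense last part of the block. The longest regions were 71621794 to 71623957 (2163 bases), region 72034707 (2125 bases) and 71184374 to 71186436 (2062 bases). Across the 337 tested regions, length and log2 CPM were correlated (Pearson's r = 0.634, a description across regions that share the same libraries).

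The limits are round positions, and captured regions continued on both sides of them. The first region inside was 68533765 to 68534335 with 20 tags over all rats, and the nearest outside was 68457934 to 68458557 with 7. The last region inside was 72490762 to 72491220 with 217 tags, 59 of them in TBI rat 10, and the nearest outside was 72502280 to 72503918 with 465 tags and 27 to 65 per rat.

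Library totals ranged from 13597924 to 21672940 tags. The block took 748 to 798 CPM of each library (without TMM scaling). The mean was 771 ± 18.5 in the sham group and 761 ± 8.61 in the TBI group (SD, n = 5 each), and the ranges overlapped. The highest value belonged to sham rat 5, and the other 4 sham rats had 764 ± 12.3 (SD).

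Sham rat 5 stood apart in how its tags were spread over the regions. Pearson's r of log2 CPM between rats over the tested regions was 0.729 to 0.876 for the 36 pairs without this rat and 0.507 to 0.722 for the 9 pairs with it. Its CPM was the highest in 48.2% of the regions with tags in the block (46.2% over the series) but in 18.7% of those tested. It gave 24.1% of the tags in the 478 regions below the filter and 8.23% of those in the tested regions. For each rat, the tested regions were ranked by the mean log2 CPM of the other rats and cut into quintiles. From the weakest to the strongest quintile, the deviation of sham rat 5 from that mean fell by 0.81 on the log2 scale. The changes were -0.32 to 0.29 in the others. Log2 fold changes between groups are therefore given with and without this rat.

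Regions in which 1 rat had many tags and another none were nearly all regions of sham rat 5. Tags were present in every rat in 526 regions (64.5%, against 73.5% over the series). The share of regions without tags was 21.8%, 11.3%, 15.0%, 23.6% and 1.10% in sham rats 1 to 5 and 14.4%, 23.2%, 15.3%, 14.4% and 9.57% in TBI rats 6 to 10. The groups overlapped, and sham rat 5 was far below all others. It was also the only rat with tags in 25 regions (3.07% of the block, against 1.69% over the series), while sham rat 2 and TBI rat 10 each had 1 such region. The fullest of these was 69932666 to 69933054, with 20 tags in sham rat 5 and none in any other rat.

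With at least 20 tags asked of 1 rat and 0 of another, 31 regions of the block qualified (3.80%, against 4.00% over the series). In 30 of them sham rat 5 was the only rat that reached 20 tags. An example was 72272976 to 72273619, with 20 tags in sham rat 5, 1 in TBI rat 10 and none elsewhere. Without this rat a single region was left.

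**Figure D2:**
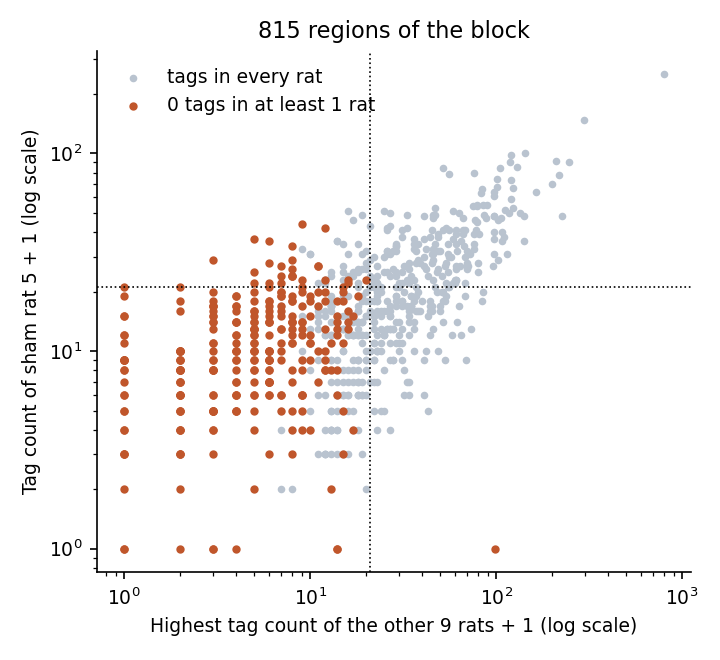
Tag count of sham rat 5 (y axis) against the highest tag count of the other 9 rats (x axis), both plus 1 on log scales, with 1 point for each of the 815 regions, orange where at least 1 rat had no tag, and dotted lines at 20 tags. In 30 orange regions sham rat 5 alone reached 20 tags, and the single orange point far to the right is the region with 98 tags in sham rat 4 and none in 6 rats.

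That region was 71662437 to 71663129, 692 bases long. It was the only member with 0 tags in at least 2 rats and at least 20 in at least 2 others, a pattern found in 188 regions (0.0262%) of the series. It was also the only one of the 337 tested regions with any rat at 0. Its tags were 2, 38, 88, 98 and 0 in sham rats 1 to 5, and 0 in each of the 5 TBI rats. Sham rats 2, 3 and 4 were thus high, sham rat 1 was near the limit of detection, and sham rat 5 was like the TBI rats.

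On the scale of abundance the sham rats had 0.164, 2.93, 4.65, 5.38 and 0 CPM. A count of 0 allows up to 3 tags, which is 0.151 to 0.245 CPM depending on the library and covers counting error only. Taking the rats of each group together, the level was at least 81.2-fold lower in TBI rats than in sham rats, against the level of 3 tags over the 5 TBI libraries, and at least 100-fold lower when sham rat 5 was left out. The groups overlapped with all rats, since sham rat 5 was also at 0, and did not overlap without it.

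The neighbours of region 71662437 did not share its pattern. The nearest tested region before it, 71655130 to 71655742, had 17, 32, 49, 74 and 53 tags in sham rats and 37, 72, 30, 55 and 58 in TBI rats. The nearest after it, 71681299 to 71682217, had 58, 38, 65, 87 and 26 tags in sham rats and 50, 66, 95, 73 and 89 in TBI rats. Every rat had tags on both sides, and the TBI rats had as many there as the sham rats. Among the 10 nearest regions on each side, 15 were tested, all of them within 50 kb. Their log2 fold changes of TBI over sham lay between -0.48 and 0.34 (-0.51 and 0.47 without sham rat 5). Their r with region 71662437 had a median of -0.06 over the 10 rats. Tested regions further out, though still within 50 kb, are not part of these values.

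**Figure D3:**
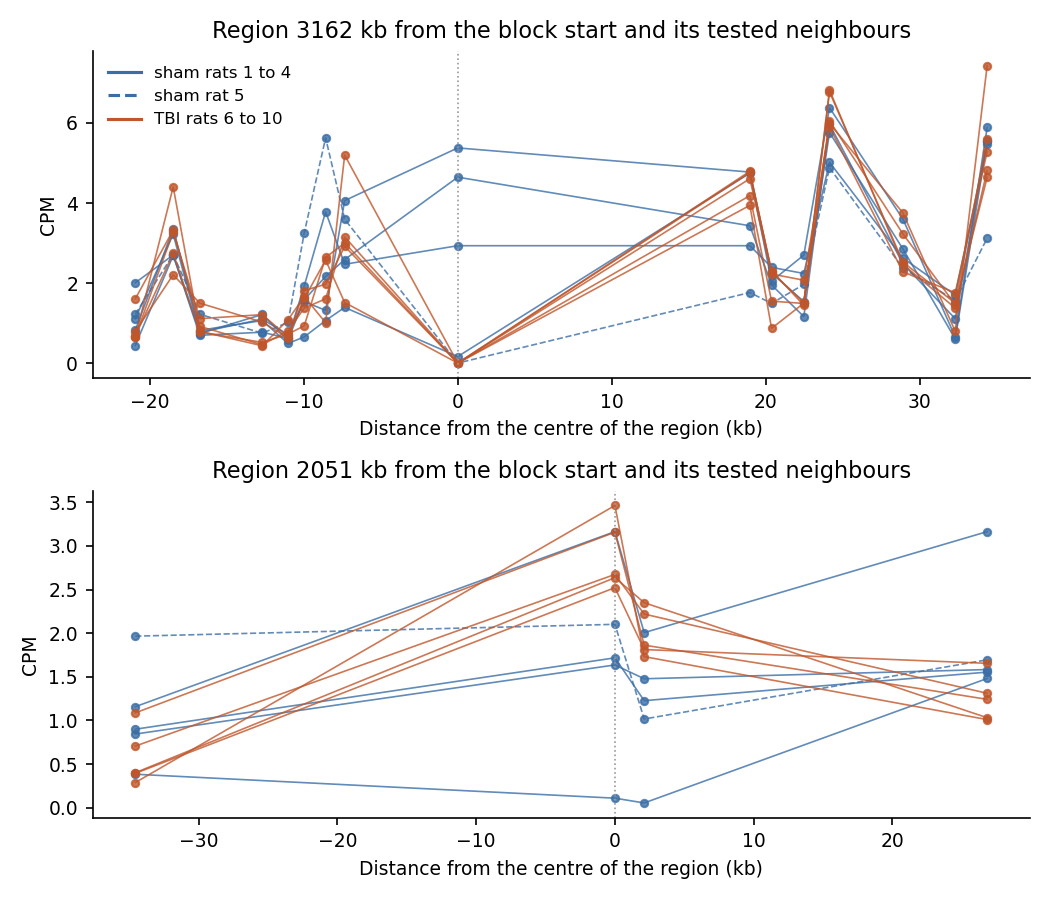
CPM per rat (y axis) in 2 regions, placed at 0 on the x axis, and in the tested regions among the 10 nearest on each side, by distance in kb. In the upper panel only sham rats 2, 3 and 4 stay above 2 CPM at region 71662437 while all rats have tags in the neighbours, and in the lower panel sham rat 4 alone drops at region 70550789 and at the region next to it.

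A close pair of regions was low in 1 rat. Region 70550789 to 70551562 had 21, 41, 31, 2 and 31 tags in sham rats 1 to 5 and 32, 48, 53, 46 and 61 in TBI rats 6 to 10. Region 70552945 to 70553623, which begins 1383 bases after the end of the first, had 15, 26, 28, 1 and 15 tags in sham rats and 23, 24, 44, 41 and 36 in TBI rats. In both, sham rat 4 was far below the others, in a library of 20570124 tags. Their r over the 10 rats was 0.966 (0.976 without sham rat 5), the highest among the pairs of tested regions within 100 kb. Sham rat 4 was not set apart in this way in the tested regions on both sides of the pair. In the tested region before it, 70516298 to 70516916, this rat had 7 tags, against 11 to 29 in the other sham rats and 4 to 21 in TBI rats. In the tested region after it, 70577299 to 70578704, this rat had 27 tags, against 19 to 41 in the other sham rats and 14 to 26 in TBI rats. Region 70504213 to 70504645, about 46 kb before the pair and below the filter, was at 0 in sham rat 4 alone, but the other rats had only 4 to 12 tags there.

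These 3 regions were the only tested ones whose SD of log2 CPM over the rats was above 1. The median SD was 0.41 in the block and 0.37 over all tested regions (0.37 and 0.34 without sham rat 5). The next most variable regions were low in 1 or 2 rats or high in sham rat 5. Region 72109978 to 72110791 had 1, 28, 20, 8 and 24 tags in sham rats and 9, 5, 11, 11 and 15 in TBI rats. Region 72188524 to 72189034 had 1 tag in TBI rat 7 and 25 in sham rat 5, and region 69879686 to 69880137 had 1 tag in sham rat 2 and up to 21 in the others. Both 72028370 to 72029623 and 71571461 to 71572486 had 50 tags in sham rat 5, against at most 24 and 15 in any other rat. The rats that stood out thus changed from region to region.

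The way the rats differed in one region was not carried on to its neighbours. The mean absolute r of log2 CPM between 2 tested regions, over the 10 rats, was 0.335 within 100 kb (4276 pairs), 0.331 at 100 to 500 kb and 0.331 at 2 to 4 Mb (8422 pairs). Near neighbours were therefore on average hardly more alike than regions far apart. Without sham rat 5 the values were 0.314, 0.309 and 0.309. Of the 626 stretches of 4 Mb, 442 had a higher value within 100 kb than the block (282 without sham rat 5), and the highest reached 0.527.

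Pairs with r above 0.9 made up 0.257% of the pairs within 100 kb (11 pairs) and 0.178% of those 2 to 4 Mb apart (15 pairs). Apart from the pair at 70550789, the nearest was 71891299 to 71891734 with 71900149 to 71901201, which lie 8415 bases apart (r = 0.943, or 0.915 without sham rat 5). The former had 29, 8, 37, 48 and 9 tags in sham rats and 25, 24, 35, 24 and 28 in TBI rats, and the latter had 43, 24, 59, 67 and 30 in sham rats and 43, 49, 71, 57 and 55 in TBI rats. Sham rats 2 and 5 were the low ones in both. This pair was chosen after its values were seen.

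Mean log2 deviations of the rats over the tested regions of each 500 kb stretch were small. With sham rat 5 left out, they lay between -0.30 and 0.32 in every stretch. Sham rat 5 reached -0.49 between 69 and 69.5 Mb and lay between -0.23 and 0.08 in the other stretches. The highest, 0.32, was in TBI rat 8 and the lowest, -0.30, in sham rat 2, in adjacent stretches between 69 and 70 Mb that held 11 and 19 tested regions. In the 3 densest stretches the range was -0.14 to 0.10.

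The comparison of TBI with sham rats asks whether captured methylated DNA differed 3 months after the injury. Over the 337 tested regions of the block, the median log2 fold change of TBI over sham was -0.01 (-0.02 over all regions tested), and 165 regions were higher and 172 lower. Without sham rat 5 the median was -0.01 (-0.00 over all). The median region of the block thus lay close to no difference, as did that of the series.

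In edgeR's quasi-likelihood test with all 10 rats, 4 of the 337 regions (1.19%) had an unadjusted p under 0.01, against 0.266% of all 358249 regions tested. Of these, 2 were higher in TBI rats (0.098% of all regions were) and 2 were lower (0.168% of all). No region of the block had an adjusted p under 0.05 (Benjamini-Hochberg over all regions tested), nor did any region of the series (0%), while 13 of the 337 (3.86%) had an unadjusted p under 0.05, against 2.45% of all. At the same adjusted threshold edgeR's likelihood ratio test gave 2 regions of the block and 4 of the series (0.00112%), and the Wald test of DESeq2 gave 0 in both. Of 626 stretches of 4 Mb, 35 held more than 4 called regions. The block was chosen with this contrast known, so nothing is read from its share of calls.

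Region 69032388 to 69033262 was higher in TBI rats. Its values were 1.06, 0.772, 1.21, 1.76 and 0.746 CPM in sham rats 1 to 5 and 2.68, 2.81, 2.88, 2.58 and 2.85 CPM in TBI rats 6 to 10, from 10 to 57 tags. All 5 TBI rats lay above all 5 sham rats and within a narrow range. The log2 fold change was 1.28 ± 0.24 (SE), and 1.16 ± 0.23 without sham rat 5. It lies in the sparse part of the block, and the 5 tested regions within 50 kb had log2 fold changes of -0.04 to 0.74. The highest was that of 69016138 to 69016663, which ends 15725 bases before it (r = 0.75 with it over the 10 rats). Region 69016789 to 69017075, 15313 bases before it and below the filter, had r = 0.84 with it. Its tags were 1 to 6 in sham rats and 6 to 13 in TBI rats. In the nearest region after 69032388, 69040072 to 69040628, also below the filter, r was -0.01.

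Region 70418030 to 70418997 was lower in TBI rats. It had 5.24, 4.09, 5.75, 6.75 and 3.53 CPM in sham rats and 2.52, 3.10, 2.22, 1.66 and 3.11 CPM in TBI rats, from 29 to 123 tags. The groups did not overlap, and the lowest sham value was that of sham rat 5. The log2 fold change was -1.02 ± 0.21 (SE), and -1.13 ± 0.18 without sham rat 5. The nearest tested regions did not share this difference. Region 70413113 to 70414105, which ends about 4 kb before it, had 71, 70, 108, 140 and 35 tags in sham rats and 67, 66, 127, 91 and 118 in TBI rats. Region 70419425 to 70420007, which begins 428 bases after it, had 13, 27, 21, 19 and 16 tags in sham rats and 15, 13, 34, 21 and 28 in TBI rats, and the groups overlapped in both.

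Region 71836683 to 71837231 was the other one higher in TBI rats, at low counts. It had 6, 7, 8, 10 and 8 tags in sham rats and 10, 11, 27, 14 and 23 in TBI rats. In CPM the groups did not overlap, with 0.509 ± 0.05 in sham and 0.988 ± 0.27 in TBI rats (SD, n = 5 each), and the log2 fold change was 0.97 ± 0.33 (SE), and 1.00 ± 0.37 without sham rat 5. Its unadjusted p (quasi-likelihood test or the other tests tried) was under 0.01 in 9 of the 14 alternative settings in which it was tested. It fell below the filter when TBI rat 8 or TBI rat 10 was left out, and when 10 tags were asked of every rat. The fourth called region was 71662437. All of its 226 tags were in sham rats, so it passed the filter through that group alone.

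**Figure D4:**
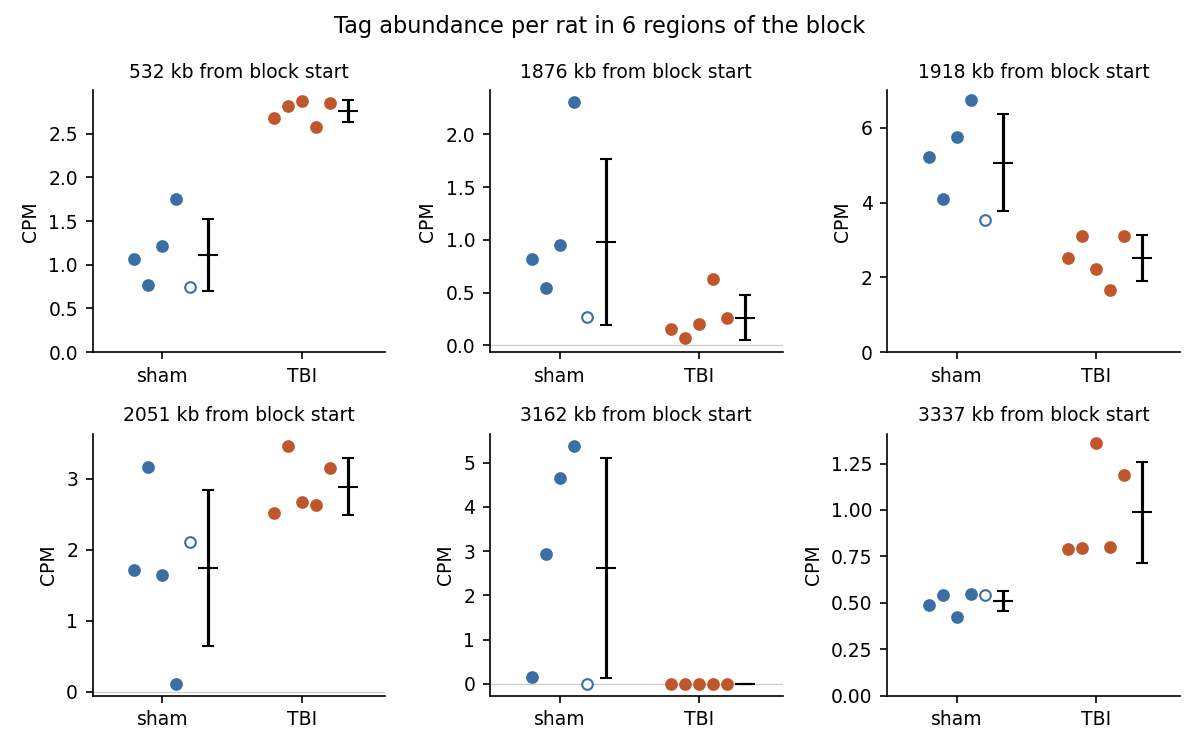
CPM (y axis, linear) per rat in 6 regions, each named by its distance from the start of the block (532 kb is region 69032388, 1876 is 70375965, 1918 is 70418030, 2051 is 70550789, 3162 is 71662437 and 3337 is 71836683), with blue points for sham rats (open for sham rat 5), orange points for TBI rats and black bars for mean ± SD. The groups do not overlap at 532, 1918 and 3337 kb, and at 3162 kb all TBI rats and sham rat 5 lie at 0.

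Sham and TBI rats were fully separated by CPM in 5 of the 337 regions (1.48%, against 0.502% of all regions tested). Beside 69032388, 70418030 and 71836683, these were 71204878 to 71205447, with 36, 27, 46, 46 and 33 tags in sham rats and 41, 63, 59, 54 and 66 in TBI rats, and 71131220 to 71131926, with 29, 31, 48, 43 and 37 tags in sham rats and 26, 28, 42, 36 and 35 in TBI rats. Their log2 fold changes were smaller, at 0.49 ± 0.18 and -0.28 ± 0.18 (SE), or 0.46 ± 0.19 and -0.26 ± 0.20 without sham rat 5, and neither was called.

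Without sham rat 5, 343 regions of the block passed the filter and 9 were called (2.62%, against 0.792% of all 358615 regions tested). Of these, 5 were higher in TBI rats (0.397% of all) and 4 were lower (0.396% of all). The 4 regions called with all rats were among them. Regions 71662437 and 70418030 had an adjusted p under 0.05, as did 14 regions of the whole series (0.0039%). In the same quasi-likelihood test with all rats neither did. For region 71662437 the rat left out is a sham rat that read 0 there, so nothing is read from its adjusted p. CPM did not overlap in 13 of the 343 regions (1.55% of all).

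The 5 regions called only without sham rat 5 differed in size and depth. Region 70375965 to 70376548 had 10, 7, 18, 42 and 4 tags in sham rats and 2, 1, 4, 11 and 5 in TBI rats, and fell below the filter when sham rat 5 was counted. Its log2 fold change without that rat was -2.08 ± 0.46 (SE), and the groups overlapped through TBI rat 9. It was singled out after its values were seen, as was region 70346870 to 70347274, which had 4 to 31 tags per rat. The latter hardly moved with the rats used, at 1.09 ± 0.40 without sham rat 5 and 1.08 ± 0.39 with it. Region 70018169 to 70018728 had 6 tags in sham rat 5, 18 to 33 in the other sham rats and 13 to 20 in TBI rats (-0.76 ± 0.27, or -0.53 ± 0.34 with all rats). Region 71187250 to 71188313 had 50 tags in sham rat 5, 15 to 41 in the other sham rats and 32 to 58 in TBI rats (0.71 ± 0.22, or 0.46 ± 0.24 with all rats). In these last regions sham rat 5 lay on the side of the TBI rats or beyond. The remaining one was 70550789 (0.87 ± 0.32, or 0.77 ± 0.37 with all rats), the region in which sham rat 4 had 2 tags.

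Without sham rat 5 the groups also did not overlap in 71601552 to 71602436 (0.51 ± 0.21, or 0.44 ± 0.19 with all rats), 70831347 to 70831657 (-0.80 ± 0.36, below the filter with all rats) and 71861409 to 71862502 (-0.43 ± 0.20, or -0.34 ± 0.21 with all rats), none of which was called.

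**Figure D5:**
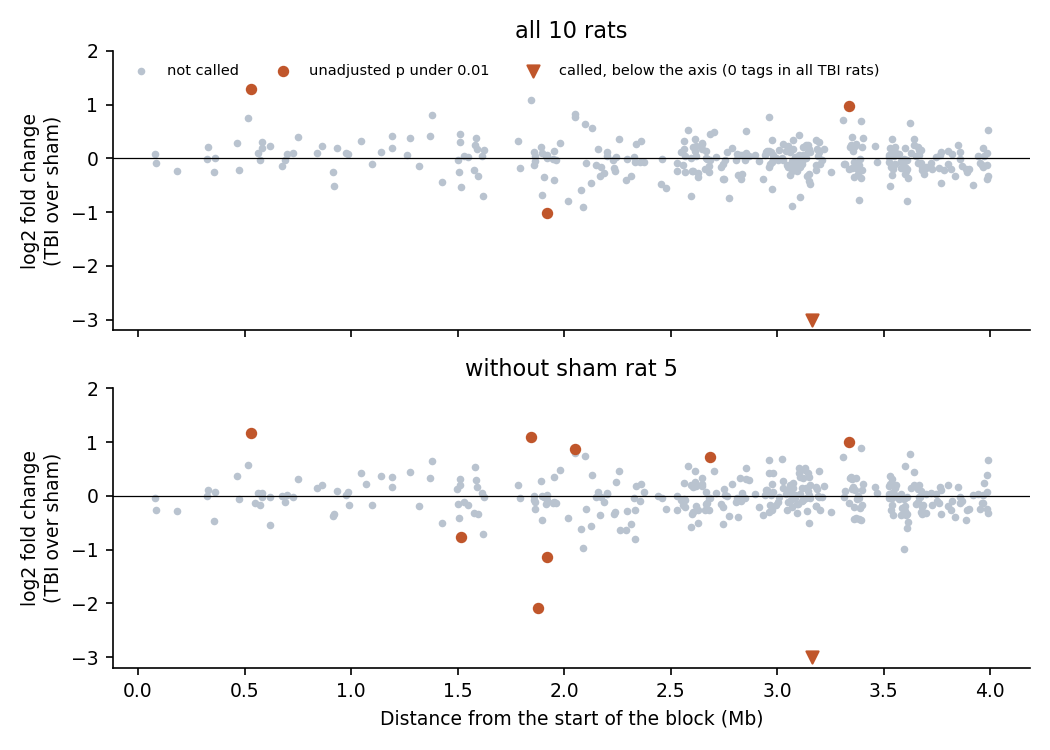
Log2 fold change of TBI over sham (y axis) against distance from the start of the block in Mb (x axis) for the tested regions, with all 10 rats (upper panel) and without sham rat 5 (lower panel), called regions in orange. The 4 and 9 called regions lie singly among uncalled ones, and the triangle marks region 71662437, whose fitted value lies below the axis.

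Without sham rat 5, regions 70346870, 70375965 and 70418030 lay within 100 kb of each other and differed in direction, since the first was higher in TBI rats and the others were lower. At region 71662437, sham rats 2, 3 and 4 carried all but 2 of the 226 tags, and the other two sham rats were at or near 0. A difference between groups and a difference between single outbred rats cannot be told apart there. Whether the sequence of the rats differed there was not tested.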

How the data were processed

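Methyl-capture sequencing tags were measured in hippocampal tissue of 5 sham and 5 TBI rats. The authors aligned single short reads to RN4 (BWA), ran MACS on each pair of samples, merged the resulting regions (BEDTools) and dropped reads repeated at 1 position. What they deposited are tag counts, 1 per region and rat and unscaled. A region is thus in the table where MACS found 1 library above another. Whether positions count from 0 or 1 was not given in the sources used here. The study's methods count 4 controls for this assay, whereas 5 sham libraries are labelled and used here, and which library that count leaves out is not given in the sources used here. Groups came from the treatment labels and columns were matched by rat number. The p-values weigh the difference between the groups against the spread between rats.

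Regions with a tag sum at or above the 50th percentile (117 tags) were tested over the whole table with edgeR 4.0.16 in R 4.3.3 (TMM, trended dispersion, glmQLFit and glmQLFTest, no covariates), and the members were then read out. A region was called at an unadjusted p under 0.01, as in the study. Adjusted p-values are Benjamini-Hochberg over all regions tested. Log2 CPM used a prior count of 2. Similarity was the mean absolute Pearson's r over rats between tested regions within 100 kb, and 626 stretches of 4 Mb on the autosomes served as the comparison. Counts were simulated for 40000 regions of the TBI against sham comparison. There, 49% of 100 regions changed by 1 log2 unit and 89% of 100 changed by 2 were recovered at an adjusted p under 0.05. An unadjusted p under 0.01 was reached by 0.915% of the unchanged ones, against 0.266% of all regions in the measured counts. The simulated counts followed the trended dispersion and held no library set apart like sham rat 5. The shares recovered therefore need not hold for the measured counts.

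Named regions were up to 5 in each direction with the smallest p among those whose CPM did not overlap (with and without sham rat 5), the 8 most variable, up to 8 with 0 tags in at least 2 rats and at least 20 in 2 others, the 3 longest, the 3 highest by CPM and by CPM per kb, the regions at the ends and those nearest outside; 27 distinct regions of the block resulted. Neighbours of these are named by position. The members, rules and alternatives were chosen with earlier results of these data known. Alternatives were other scalings (DESeq2 1.42.0 size factors, total tags, loess offsets with span 0.3), other filters, other tests, other thresholds and leaving out each rat. No RN4 genome or annotation was used here, so no sequence is given.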

Additional observations from a re-analysis of the deposited data

Results flagged for a closer look

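Values were looked at again where 1 rat of a group of 5 lay far from the other 4 by Dixon's criterion. This was done for 61 sets of 5 values, and 9 were picked. About 3.05 would be picked by chance among independent sets. Most sets here are named regions, many of them chosen on these same values, and all share the same rats. The count of 9 is therefore not read as an excess. Of the 9, 5 concern sham rat 5.

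The mean r of sham rat 5 with the other rats over the tested regions of the block was 0.624, and the next lowest sham rat had 0.748. Its CPM was high in region 71571461 (3.39, next 0.792) and in the first region of the block, 68533765 (0.543, next 0.154). It was low in the strong regions 72034707 (9.97, next 14.1) and 71866006 (6.17, next 9.55). In these 4 regions sham rat 5 was thus above the other sham rats where tags were few and below them where tags were many.

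Among the TBI rats, rat 7 had the highest CPM in region 71204878 (4.55, next 3.42) and the lowest in region 71187250 (2.31, next 2.83). Its change from weak to strong regions was 0.19 on the log2 scale, against -0.10 in the next TBI rat. TBI rat 6 was the highest in region 71184374 (9.22 CPM, next 6.76).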

How the results depend on the processing

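The 4 called regions became 12 with all regions of at least 1 tag (0.535% of all such regions were called), 13 at an unadjusted p under 0.05 (2.45% of all) and 3 to 9 when single rats were left out, with 9 reached without sham rat 5. The count of 0 at an adjusted p under 0.05 became 2 with the likelihood ratio test (4 in the series) and 0 to 2 when single rats were left out, with 2 reached without sham rat 5; other scalings, filters and the Wald test gave 0. The median log2 fold change of -0.01 became -0.14 with all regions of at least 1 tag (-0.07 over all such regions of the series). Regions without tags in some rats rose from 1 to 10 when 10 tags counted as present (1.23% of the block, against 0.841% over the series). Sham rat 5 had the highest CPM in 6 of these 10, and 4 regions qualified without it. Among the 10 was 69935158 to 69935423, with 8, 8, 11, 14 and 10 tags in sham rats. It had 2, 0, 1, 0 and 0 tags in TBI rats. In region 70693318 to 70693823 the highest counts, 15 and 16, were in TBI rats 8 and 10. Both lay below the filter and were singled out after their values were seen. The count rose to 31 when 1 rat was asked for (3.80%, against 4.00% over the series). The similarity of 0.335 was 0.360 with deviations from the group means, 0.398 with all regions of at least 1 tag and 0.314 to 0.358 when single rats were left out; fewer rats raise a mean absolute r, and only the removal of sham rat 5 lowered it. Density was 84.3 regions per Mb past the filter. The cause of these shifts was not tested. Among named regions, 69032388 kept a p under 0.01 in 17 of 17 alternatives (log2 fold change 1.16 to 1.52) and 70418030 in 17 of 17 (-1.13 to -0.89). No paired analysis was possible because no rat number occurred in both groups.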
